A study of Mus musculus with 10 samples.

Results

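Cardiac muscle genes were measured in whole-lung RNA of mice with and without the endoplasmic reticulum kinase and ribonuclease IRE1α, the product of Ern1, in the lung epithelium. The 10 genes were Myh6, Myl7, Myl4, Mybphl, Actc1, Tnnt2, Tnni3, Sln, Ryr2 and Nppa, chosen as genes of cardiac muscle by their symbols, and all 10 were among the 27179 genes counted. There were 5 EpithelialKO mice (Shh Cre/+ with both IRE1α alleles floxed, numbered 17, 18, 20, 21 and 22) and 5 Flox mice (Shh +/+ with the same floxed alleles, numbered 2 to 6). Both groups thus carried the floxed gene, and the EpithelialKO mice differed from the Flox mice in the Cre allele at the Shh locus as well as in the deletion it drives. Shh is expressed by lung epithelium, whereas the genes described here belong to muscle. Age, sex and batch are not in the labels, and each library is from a separate animal.

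In mice, a sleeve of cardiac muscle continues from the left atrium along the pulmonary veins into the lung, so that whole lung holds heart muscle cells of its own, and heart tissue can also be taken along at dissection. Cardiac muscle contracts when calcium released from the sarcoplasmic reticulum binds troponin on the thin filament and lets myosin heads of the thick filament pull on actin. Atrial and ventricular muscle use different myosin light chains, and atrial muscle stores the hormone precursor encoded by Nppa.

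All 10 genes had counts in every lung, and the highest lung had 3.10 to 132 times the CPM of the lowest. In EpithelialKO over Flox 0 of the 10 passed the test, against 6 of all 15301 genes tested (0.0392%). Of the 10 genes, 5 had a positive and 5 a negative log2 fold change, and the median log2 fold change was 0.01. Most of them were high in the same mice and low in the same mice. Nppa shared part of this order but covered a wider range. Relative to the mean of the other 9 genes, Nppa was higher in EpithelialKO mice 17, 18 and 20 than in any Flox lung. In EpithelialKO mice 21 and 22 it was slightly lower than in any Flox lung by this measure. Its log2 ratio there was -4.30 and -4.33, against -4.24 in Flox mouse 6, and these values rest on 4, 11 and 7 counts. Per Myl7 count, EpithelialKO mouse 22 lay above Flox mouse 6 (0.0210 against 0.0172). The Nppa contrast was picked out after the values were seen and was not tested.

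Total counts per library were 16234895 to 18870247 in EpithelialKO and 14983829 to 21224412 in Flox mice. Ern1 itself stood at 12.3, 15.5, 10.7, 21.8 and 26.1 CPM (counts scaled to library size) in EpithelialKO mice 17, 18, 20, 21 and 22 and at 20.1, 19.8, 15.6, 8.05 and 20.5 CPM in Flox mice 2 to 6, so whole-gene counts in whole lung did not separate the groups or check the labels. Flox mice 4 and 6 had 3949 and 4866 counts of Xist, which is transcribed from the inactive X chromosome, while the other 8 mice had 2 to 61. Results are therefore also given without those 2 mice.

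Promoter sequences of 4 of the genes are shown as background, and their part in the differences between mice was not tested. RefSeq promoter windows (GRCm38.p6, 250 bases before to 50 after a transcript start, written 5′ to 3′ on the gene's strand) were at hand for 9 of the 10 genes, and Sln was not among them. Capitals mark the CArG box, the site of the muscle regulator SRF (6 weak bases, adenine or thymine, between CC and GG), and GATA sites (GATA between a weak base before it and a purine after it, on either strand). The windows are chr11:5898733-5899032 (minus strand) for Myl7, chr2:114052826-114053125 (minus strand) for Actc1, chr4:148000472-148000771 (plus strand) for Nppa and chr14:54966558-54966857 (minus strand) for Myh6.
Myl7: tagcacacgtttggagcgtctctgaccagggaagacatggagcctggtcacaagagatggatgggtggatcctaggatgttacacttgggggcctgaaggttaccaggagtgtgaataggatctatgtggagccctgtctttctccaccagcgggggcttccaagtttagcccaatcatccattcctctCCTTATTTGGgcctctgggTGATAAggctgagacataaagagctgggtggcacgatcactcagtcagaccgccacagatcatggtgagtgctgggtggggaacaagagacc
Actc1: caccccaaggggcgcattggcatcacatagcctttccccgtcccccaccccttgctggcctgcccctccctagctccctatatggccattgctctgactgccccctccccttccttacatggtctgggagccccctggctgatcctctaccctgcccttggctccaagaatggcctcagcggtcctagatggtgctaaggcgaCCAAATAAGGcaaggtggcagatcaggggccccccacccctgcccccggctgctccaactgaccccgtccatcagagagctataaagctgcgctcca
Nppa: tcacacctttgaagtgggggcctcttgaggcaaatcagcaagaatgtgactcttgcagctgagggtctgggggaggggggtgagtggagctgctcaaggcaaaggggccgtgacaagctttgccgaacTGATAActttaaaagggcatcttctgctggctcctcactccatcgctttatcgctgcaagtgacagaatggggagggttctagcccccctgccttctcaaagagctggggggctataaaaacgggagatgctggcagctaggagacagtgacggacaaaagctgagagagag
Myh6: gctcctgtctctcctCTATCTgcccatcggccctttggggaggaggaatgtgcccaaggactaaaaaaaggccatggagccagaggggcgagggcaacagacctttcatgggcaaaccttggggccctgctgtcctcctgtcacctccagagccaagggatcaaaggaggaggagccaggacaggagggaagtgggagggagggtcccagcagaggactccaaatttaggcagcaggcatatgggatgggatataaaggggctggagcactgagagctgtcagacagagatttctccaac
A CArG box lay in the windows of Myl7, 61 to 52 bases before the start, and of Actc1, 47 to 38 bases before it, and in 1.63% of all 32851 windows. A GATA site lay in the windows of 5 genes, among them Nppa (122 to 117 bases before the start), Myl7 and Myh6, against 29.8% of all windows. The M-CAT site of TEAD factors (CATTCC, either strand) was in the windows of Myl7, Myh6 and Tnnt2 (14.7% of all windows), and the T-box core (AGGTGT, either strand) in those of Nppa and Tnni3 (13.7%). None of their windows held a MEF2 site (4 weak bases between CTA and TAG), which was in 0.557% of all windows. None of the marked motifs overlap each other, and these are matches of letters, not shown to be bound.

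The summed level of the 10 genes was 303, 216, 114, 75.9 and 171 CPM in EpithelialKO mice 17, 18, 20, 21 and 22. In Flox mice 2 to 6 it was 110, 168, 282, 265 and 109 CPM. The groups overlapped throughout: EpithelialKO mouse 17 was the highest and EpithelialKO mouse 21 the lowest of all 10, with Flox mice 4 and 5 next to the top and Flox mice 2 and 6 next to the bottom. Without Nppa, Flox mouse 4 was the highest (280 CPM), with EpithelialKO mouse 17 next (275 CPM). The 10 genes together took 0.00743% to 0.0298% of the counts of a library. In whole lung, fewer cardiac muscle cells and less of these RNAs per cell cannot be told apart.

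**Figure D1:**
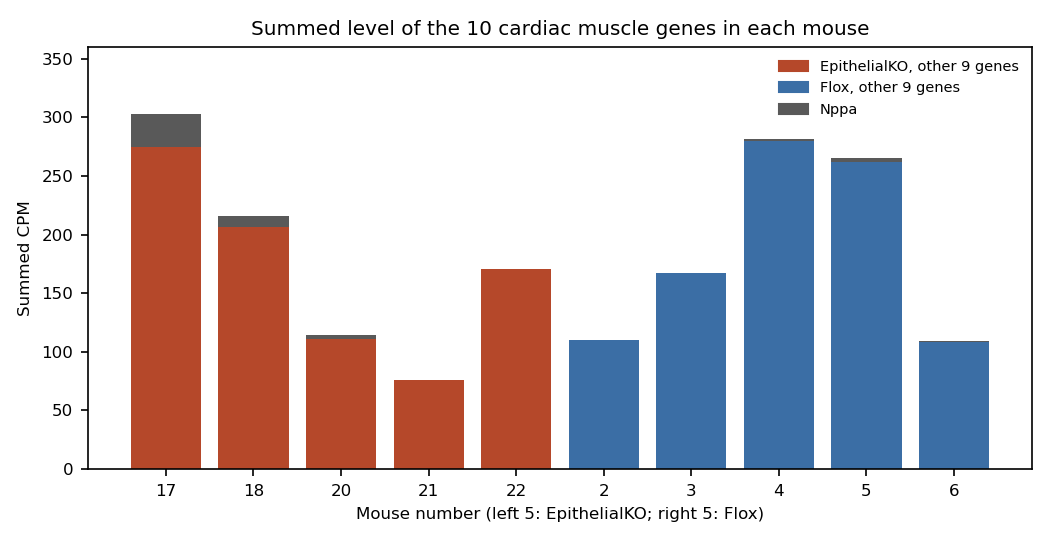
Summed CPM of the 10 cardiac muscle genes in each mouse (bars from 0, EpithelialKO left, Flox right), with the share of Nppa in grey at the top of each bar. The highest and the lowest bar are both EpithelialKO mice, at 303 and 75.9 CPM.

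Per kilobase of transcript, averaged over the 10 mice, the light chains Myl7 and Myl4 led with 53.3 ± 24.1 and 37.6 ± 17.4 CPM per kilobase (SD, n = 10). Actc1, Tnnt2 and Tnni3 followed with 19.8 ± 9.12, 19.2 ± 7.34 and 17.3 ± 7.85. Nppa, Sln and Myh6 had 5.65 ± 10.2, 5.07 ± 3.48 and 4.68 ± 3.01. Mybphl (1.65 ± 0.958) and Ryr2 (0.260 ± 0.0807) were lowest on this scale. Myl7 lay above Myl4, and Myl4 above Actc1, in 10 of 10 mice, and so did Myh6 above Mybphl and Mybphl above Ryr2. Actc1 lay above Tnnt2 in 4 and Tnnt2 above Tnni3 in 7 of the mice, and the order of Nppa, Sln and Myh6 changed from mouse to mouse in the same way, so these neighbours did not differ beyond their spread.

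The thick filament genes include the α heavy chain of cardiac myosin, Myh6 (Entrez 17888, chromosome 14, 54941921 to 54968017). Myh6 had 29.7, 20.1, 11.5, 11.4 and 31.4 CPM in EpithelialKO mice 17, 18, 20, 21 and 22, against 16.3, 26.9, 64.5, 56.8 and 17.2 CPM in Flox mice 2 to 6. Flox mice 4 and 5 were above every EpithelialKO mouse, while the other 3 Flox mice lay within the EpithelialKO range. Its log2 fold change was -0.80 ± 0.49 (SE; 95% interval -1.91 to 0.31; edgeR adjusted p = 0.556), the lowest of the 10 and negative in all 18 alternative fits. Without Flox mouse 4 it was -0.49. Of its 50-base windows, 21.9% also occur in Myh7, the β heavy chain gene beside it, so the counts of the pair may be partly mixed. No member other than Myh6 shared a window of this length with the paralog it was compared with.

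Myl7, the atrial regulatory light chain (Entrez 17898, chromosome 11, 5896637 to 5898782), had 56.5, 39.5, 19.0, 14.8 and 29.6 CPM in EpithelialKO mice 17, 18, 20, 21 and 22. In Flox mice 2 to 6 it had 16.0, 29.7, 43.5, 45.1 and 20.6 CPM. The groups overlapped and their means lay close together, at 31.9 ± 16.8 CPM in EpithelialKO and 31.0 ± 13.1 CPM in Flox mice (SD, n = 5 each). The log2 fold change was 0.04 ± 0.41 (SE; 95% interval -0.88 to 0.97; edgeR adjusted p = 0.981).

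Myl4, the atrial essential light chain (Entrez 17896, chromosome 11, 104546017 to 104587215), followed Myl7 closely. It had 55.5, 54.8, 24.2, 13.8 and 31.2 CPM in EpithelialKO mice 17, 18, 20, 21 and 22, against 23.4, 30.4, 58.1, 44.3 and 18.9 CPM in Flox mice 2 to 6. The ratio of Myl4 to Myl7 counts stayed between 0.916 and 1.47 in the 10 mice, while the level of either changed by up to 4.20-fold. The log2 fold change of Myl4 was 0.04 ± 0.44 (SE, edgeR adjusted p = 0.986). The Myl4 locus overlaps Cdc27 by 4604 bases, and whether the counts used strand is not given in the sources used here.

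Mybphl, a myosin-binding protein of atrial and conduction muscle (Entrez 68753, chromosome 3, 108364911 to 108380057), was scarce. It had 46, 64, 12, 30 and 70 counts in EpithelialKO mice 17, 18, 20, 21 and 22, or 2.74, 3.52, 0.749, 1.62 and 3.94 CPM. In Flox mice 2 to 6 it had 26, 7, 60, 34 and 28 counts, or 1.21, 0.377, 3.26, 2.26 and 1.42 CPM. Its lowest mouse was Flox mouse 3 and its highest EpithelialKO mouse 22. In Flox mouse 3 the 95% binomial (Clopper-Pearson) interval was 0.152 to 0.777 CPM, which covers counting error alone. Its log2 fold change was 0.56 ± 0.53 (SE, edgeR adjusted p = 0.7105), with 0.31 without Flox mouse 3, 0.34 without EpithelialKO mouse 22 and 0.94 without Flox mouse 4.

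**Figure D2:**
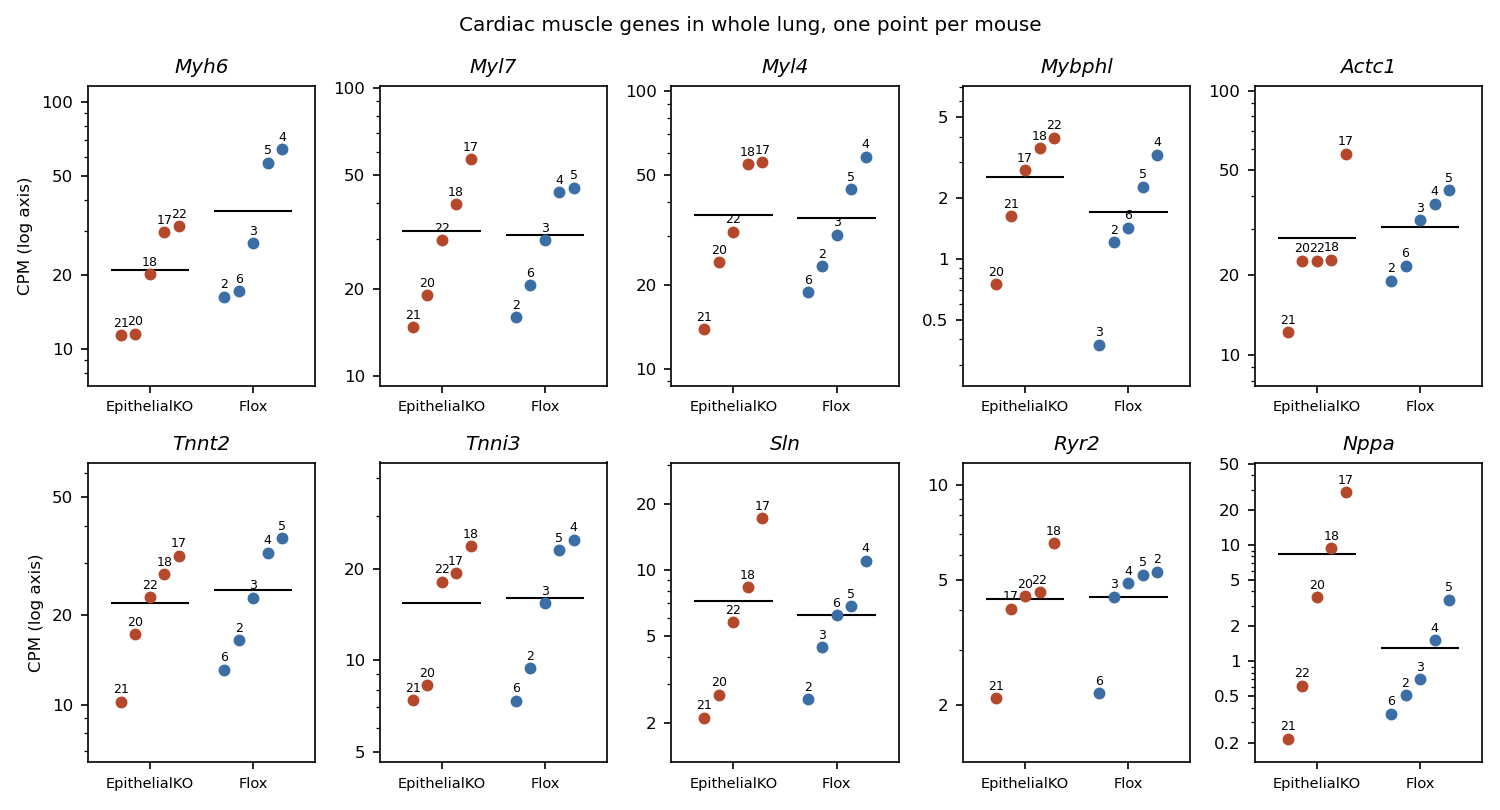
CPM of each gene on a log axis, with 1 point per mouse labelled by mouse number and ordered by value, EpithelialKO left and Flox right, and the group mean as a line. The groups overlap for all 10 genes; mouse 21 is the lowest EpithelialKO point for 9 of them, and Nppa covers the widest range, from 0.216 to 28.6 CPM.

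The thin filament genes gave the same picture. Actc1, cardiac α-actin (Entrez 11464, chromosome 2, 114047282 to 114052875), had 57.8, 22.9, 22.7, 12.2 and 22.8 CPM in EpithelialKO mice 17, 18, 20, 21 and 22, against 19.1, 32.4, 37.4, 42.0 and 21.8 CPM in Flox mice 2 to 6. EpithelialKO mouse 17 stood well above the other 4 of its group, 3 of which were nearly equal. Fitted over all mice, its log2 fold change was -0.14 ± 0.39 (SE, edgeR adjusted p = 0.927), and -0.60 without EpithelialKO mouse 17 (adjusted p = 0.402).

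Tnnt2, the troponin that anchors the complex to tropomyosin (Entrez 21956, chromosome 1, 135836315 to 135852268), had 31.7, 27.5, 17.3, 10.2 and 23.0 CPM in EpithelialKO mice 17, 18, 20, 21 and 22, against 16.5, 22.9, 32.5, 36.3 and 13.1 CPM in Flox mice 2 to 6. Tnni3, the cardiac inhibitory troponin (Entrez 21954, chromosome 7, 4518305 to 4522718), had 19.4, 23.8, 8.30, 7.41 and 18.2 CPM in EpithelialKO mice, in the same order, against 9.44, 15.5, 25.04, 23.2 and 7.37 CPM in Flox mice. Both were low in EpithelialKO mice 20 and 21 and in Flox mice 2 and 6 and high in EpithelialKO mice 17 and 18 and in Flox mice 4 and 5. Their log2 fold changes were -0.14 ± 0.33 and -0.06 ± 0.41 (SE, edgeR adjusted p = 0.909 and 0.977).

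Of the calcium handling genes, Sln encodes sarcolipin, a small peptide that inhibits the sarcoplasmic reticulum calcium pump (Entrez 66402, chromosome 9, 53850251 to 53853849). It had 17.1, 8.30, 2.68, 2.11 and 5.75 CPM in EpithelialKO mice 17, 18, 20, 21 and 22, against 2.56, 4.42, 10.97, 6.79 and 6.20 CPM in Flox mice 2 to 6. EpithelialKO mouse 17 and Flox mouse 4 were the highest of their groups. The log2 fold change was 0.22 ± 0.54 (SE, edgeR adjusted p = 0.915), with -0.39 without EpithelialKO mouse 17 and 0.66 without Flox mice 4 and 6.

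Ryr2, the calcium release channel of the sarcoplasmic reticulum (Entrez 20191, chromosome 13, 11553099 to 12106945), varied least among the members. It had 4.05, 6.54, 4.43, 2.11 and 4.56 CPM in EpithelialKO mice 17, 18, 20, 21 and 22, against 5.30, 4.42, 4.89, 5.19 and 2.18 CPM in Flox mice 2 to 6. EpithelialKO mouse 21 and Flox mouse 6 had less than the other 8 mice, which lay between 4.05 and 6.54 CPM. Its log2 fold change was -0.02 ± 0.32 (SE, edgeR adjusted p = 0.991).

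Nppa, the precursor of atrial natriuretic peptide (Entrez 230899, chromosome 4, 148000722 to 148002074), covered a wider range than the others. It had 480, 171, 57, 4 and 11 counts in EpithelialKO mice 17, 18, 20, 21 and 22, or 28.6, 9.40, 3.56, 0.216 and 0.620 CPM. In Flox mice 2 to 6 it had 11, 13, 28, 51 and 7 counts, or 0.512, 0.701, 1.52, 3.39 and 0.356 CPM. EpithelialKO mice 17, 18 and 20 were the 3 highest of all mice and EpithelialKO mouse 21 the lowest, so the EpithelialKO lungs spanned the whole range and the groups overlapped. EpithelialKO mouse 21 and Flox mice 2, 3 and 6 had the same rank for Nppa as for the sum of the other 9 genes. EpithelialKO mouse 20 ranked 3 for Nppa and 7 for that sum, and Flox mouse 4 ranked 5 and 1.

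Between the highest and the lowest lung Nppa differed 132-fold, against 3.10- to 10.5-fold for the other 9 genes. The lowest value rests on 4 counts (95% Clopper-Pearson interval 0.0589 to 0.554 CPM). Fitted to these counts, the log2 fold change was 2.74 ± 1.22 (SE; 95% interval -0.04 to 5.52; unadjusted p = 0.0524, edgeR adjusted p = 0.411). It was 1.43 without EpithelialKO mouse 17 and 3.46 without Flox mouse 5, and its lowest adjusted p over the alternatives was 0.195, with DESeq2.

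In EpithelialKO over Flox, 0 of the 10 members passed the edgeR test at an adjusted p of 0.05, as against 0.0392% of the 15301 genes tested (6 genes); 0.00654% were called higher (1 gene) and 0.0327% lower (5 genes). At an unadjusted p under 0.05 there were also 0 of 10, against 12.4% of all genes tested. All 5 EpithelialKO mice lay beyond all 5 Flox mice in 0 of the 10, against 3.12% of all genes tested. The median log2 fold change of the members was 0.01, beside 0.00 over all genes tested. Even for Ryr2, the least variable member, the 95% interval of the log2 fold change was -0.69 to 0.65, so the test leaves room for sizeable differences in either direction. Without Flox mice 4 and 6 the count was 0 and the median 0.02. Without EpithelialKO mouse 17, the mouse with the highest sum, the count was 0 and the median -0.22. In each of these fits 0 of all genes tested were called, so the counts of 0 there say nothing particular about the members.

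**Figure D3:**
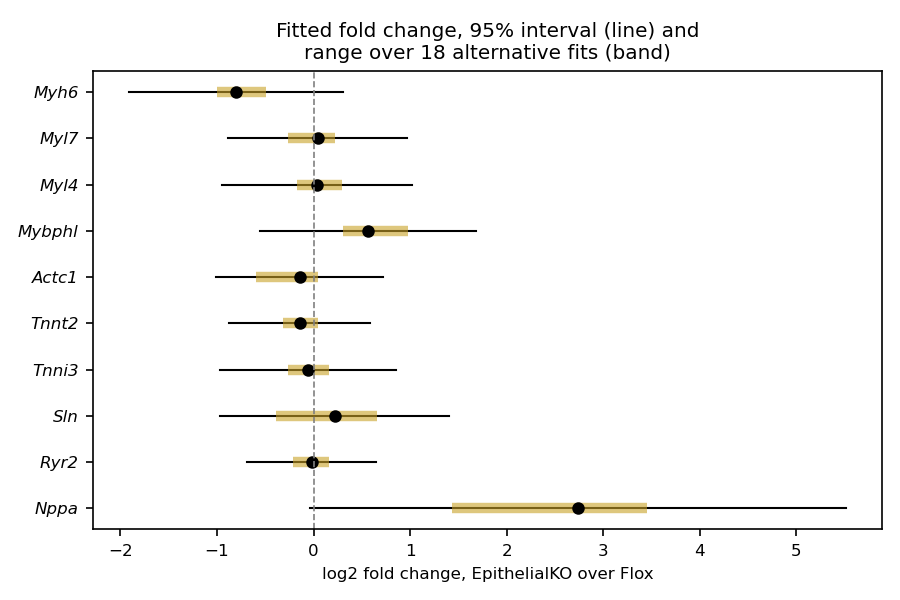
Fitted log2 fold change of each gene, EpithelialKO over Flox (points), with its 95% interval (lines) and the range over 18 alternative fits (bands). The interval includes 0 for every gene; Nppa has the highest point, 2.74, and Myh6 the lowest, -0.80.

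The members varied between mice more than most genes. The SD of log2 CPM over the 10 mice had a median of 0.718 over the members and of 0.273 over all genes tested. Among the 15301 genes tested, 5 had a higher SD than Nppa (2.08), 759 than Mybphl (0.985), 848 than Sln (0.948) and 1072 than Myh6 (0.862). The least variable members were Ryr2 (0.517, with 3185 genes above it), Tnnt2 (0.601) and Actc1 (0.641). EpithelialKO mouse 21 was the lowest of the 10 mice for 8 members. The highest was EpithelialKO mouse 17 for 4 members and Flox mouse 4 for 3.

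Set against the mean of the other 9 genes in the same mouse, the members differed in how closely they kept to the shared pattern. Myl4 and Myl7 kept closest, with an SD over mice of the log2 ratio of 0.178 and 0.197, followed by Tnnt2 (0.271), Tnni3 (0.340) and Actc1 (0.432). Sln, Ryr2, Myh6 and Mybphl had 0.501, 0.6246, 0.639 and 0.903, and Nppa had 1.72. For Ryr2 this was more than the SD of its own log2 CPM (0.517), so its value does not show that it kept to the shared pattern. With Nppa left out of the means, a comparison chosen after seeing the data, the values of the other 9 genes were between 0.203 (Myl7) and 0.867 (Mybphl).

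**Figure D4:**
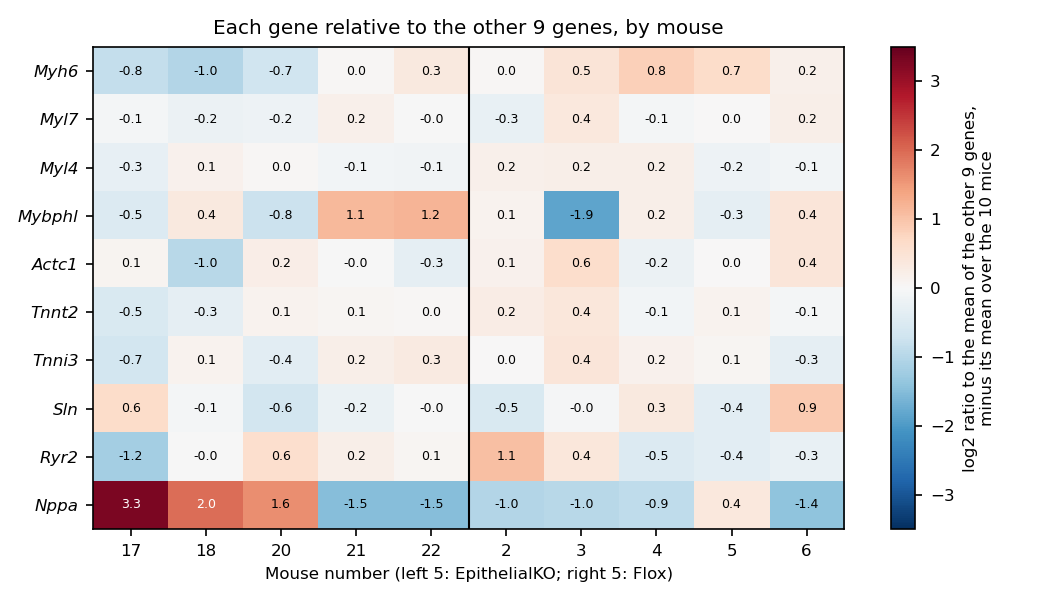
Log2 ratio of each gene to the mean of the other 9 genes in the same mouse, minus its mean over the 10 mice (EpithelialKO left of the line, Flox right). Nppa lies above its mean in EpithelialKO mice 17, 18 and 20 and, by less, in Flox mouse 5, and the rows of Myl7 and Myl4 are nearly even.

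Relative to Myl7 in the same library, Nppa had 0.506, 0.238 and 0.187 counts per Myl7 count in EpithelialKO mice 17, 18 and 20 and 0.0147 and 0.0210 in EpithelialKO mice 21 and 22. In Flox mice 2 to 6 the ratio was 0.0320, 0.0236, 0.0350, 0.0752 and 0.0172. The first 3 EpithelialKO mice lay above all Flox mice and EpithelialKO mouse 21 lay below them. The ratio of Myh6 to Myl7 counts was 0.526, 0.508, 0.607, 0.769 and 1.06 in EpithelialKO mice 17, 18, 20, 21 and 22, against 1.02, 0.906, 1.48, 1.26 and 0.833 in Flox mice 2 to 6. It was thus lower in 4 of the EpithelialKO mice than in any Flox mouse, while EpithelialKO mouse 22 lay within the Flox range. These 2 ratios were singled out after their values were seen and were not tested.

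Light chains listed as ventricular, and Nppb, were uneven between mice. Myl2, a regulatory light chain listed here as ventricular, had 61 and 130 counts in EpithelialKO mice 17 and 20 and 0 to 3 counts in the other 8 mice. In CPM these were 3.63 and 8.11, whereas the limit that a count of 0 allows (3 counts per library) was 0.140 to 0.200 CPM. Summed skeletal muscle markers were also highest in EpithelialKO mice 17 and 20, at 29.7 and 22.3 CPM. Which muscle the Myl2 counts came from was not tested. Myl3, the ventricular essential light chain that slow skeletal muscle also uses, had 7.15, 3.90, 4.56, 0.541 and 0.394 CPM in EpithelialKO mice 17, 18, 20, 21 and 22, against 0.651, 2.53, 1.63, 4.59 and 1.57 CPM in Flox mice 2 to 6. Nppb, the precursor of B-type natriuretic peptide, had 4, 12 and 1 counts in EpithelialKO mice 17, 18 and 20 and 0 in the other 7 mice. The mice with Nppb counts were the 3 with the most Nppa, and of these mouse 18 had no Myl2 count.

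**Figure D5:**
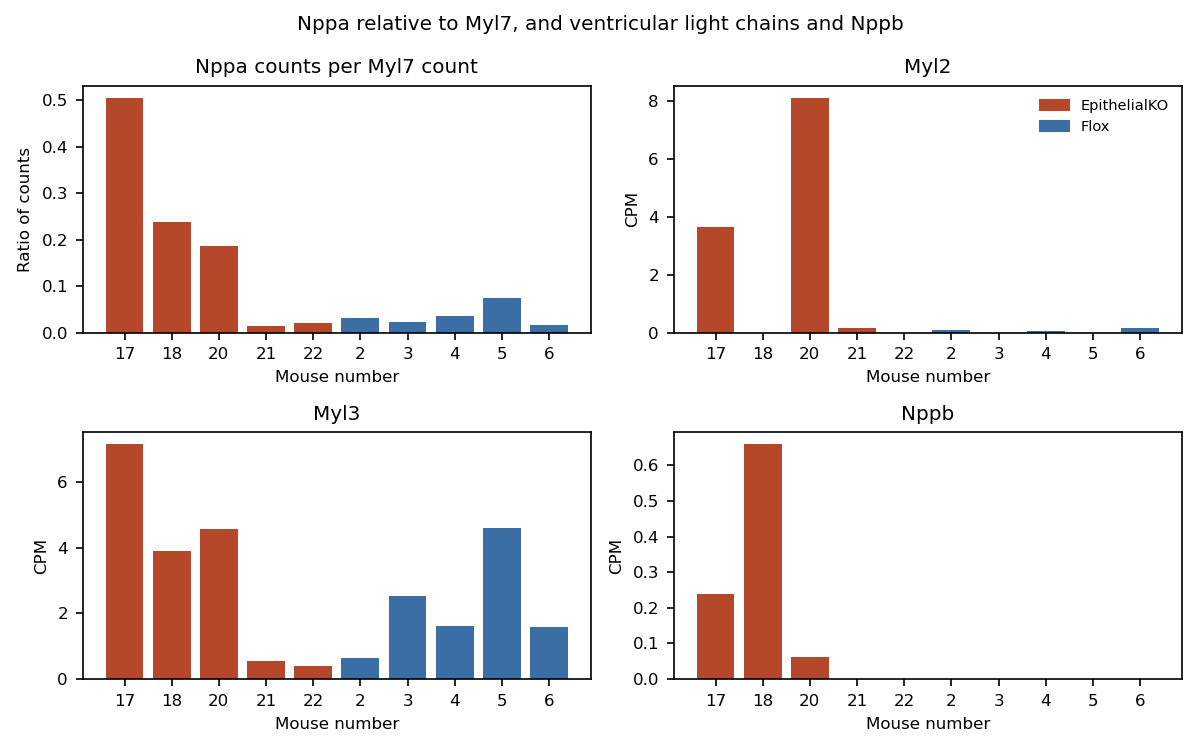
Nppa counts per Myl7 count, and CPM of Myl2, Myl3 and Nppb, in each mouse (bars from 0, EpithelialKO left, Flox right, mouse numbers below). Myl2 is above 0.2 CPM in EpithelialKO mice 17 and 20, and Nppb is above 0 in EpithelialKO mice 17, 18 and 20.

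Of the paralogs of the members, Myh7 did not share their pattern. It had 20.7, 23.3, 40.7, 35.9 and 21.4 CPM in EpithelialKO mice 17, 18, 20, 21 and 22, against 26.6, 20.9, 25.2, 16.8 and 22.9 CPM in Flox mice 2 to 6, and was highest in EpithelialKO mice 20 and 21, in which Myh6 was lowest (log2 fold change 0.34 ± 0.19, SE, edgeR adjusted p = 0.507). Acta1, skeletal α-actin, had 37 and 41 counts in EpithelialKO mice 17 and 20 and 0 to 10 in the other 8, and so was highest in the same mice as Myl2. Of other chamber genes, Bmp10, a ligand of right atrial muscle, had 1 count in EpithelialKO mouse 20, and Irx4, a ventricular transcription factor, had 0 to 2 counts per mouse.

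Other cardiac genes were tested from a list of 50, of which 41 had enough counts. 0 were called, 22 had a positive and 19 a negative log2 fold change, and the median was 0.02, beside 0.00 over all genes. Mb, the oxygen store myoglobin, had 25.7, 15.1, 5.99, 4.70 and 9.07 CPM in EpithelialKO mice 17, 18, 20, 21 and 22, against 7.44, 13.3, 16.6, 13.05 and 8.03 CPM in Flox mice 2 to 6. Tnnc1, the calcium sensor of cardiac troponin, had 12.03, 9.29, 7.11, 1.68 and 6.14 CPM in EpithelialKO mice, in the same order, against 3.12, 4.96, 10.2, 9.39 and 3.91 CPM in Flox mice. Both had EpithelialKO mouse 17 highest and EpithelialKO mouse 21 lowest. They were the 2 genes of the list most like the members, and others had other orders: Mybpc3, a myosin-binding protein, was highest in EpithelialKO mouse 20 (3.74 CPM), Ttn, titin, in Flox mouse 5 (11.6 CPM) and Csrp3, a LIM protein of striated muscle, in Flox mouse 4 (10.3 CPM).

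The cardiac list also held genes that other lung cells express. Jph2, which ties the sarcoplasmic reticulum to the cell membrane and was chosen here after its values were seen, had the lowest p of the list. It had 7.63, 7.58, 11.1, 6.11 and 10.2 CPM in EpithelialKO mice 17, 18, 20, 21 and 22, against 20.6, 13.6, 13.3, 22.6 and 15.7 CPM in Flox mice 2 to 6. Jph2 was the only 1 of the 41 genes tested from the list whose groups did not overlap, against 3.12% of all genes tested. Its log2 fold change was -1.01 ± 0.20 (SE) with an unadjusted p of 0.000131, but it did not pass (edgeR adjusted p = 0.0779). It did not follow the members: EpithelialKO mouse 17, their highest, was at 7.63 CPM, and Flox mouse 4, next in their order, was at 13.3 CPM, the lowest of its group.

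Calcium cycling genes, a list of 16 with 15 tested, had 0 calls, 7 positive and 8 negative log2 fold changes and a median of 0.00. This list includes the members Sln and Ryr2. Pln, phospholamban, the pump inhibitor of ventricular and smooth muscle, averaged 4.20 ± 2.12 CPM in EpithelialKO and 4.21 ± 1.03 CPM in Flox mice (SD, n = 5 each). Casq2, the calcium store protein of cardiac muscle, averaged 1.802 ± 0.802 and 2.25 ± 0.873 CPM in EpithelialKO and Flox mice. Atp2a2, the calcium pump that is also made by most other cells, averaged 202 ± 33.4 CPM in EpithelialKO and 178 ± 17.9 CPM in Flox mice (log2 fold change 0.18 ± 0.11, SE, edgeR adjusted p = 0.534).

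The genes most like the members were those with the smallest SD over the 10 mice of the log2 ratio to the members' mean, among 5426 genes that varied at least 0.5 times as much as that mean. Of the first 15, 4 (26.7%) were from the cardiac lists, which made up 35 (0.645%) of the 5426: Mb (0.306), Tnnc1 (0.332), Myoz2 (0.406) and Fabp3 (0.418). Fhl2, which encodes a LIM protein abundant in heart, had 0.357. The lowest value was that of Cfap73 (0.257), a gene of motile cilia, and Armc2 (0.342), Cfap70 (0.360), Ccdc78 (0.414) and Efcab10 (0.423) were also among the 15. No list of cilium genes was used, so a share like that of the cardiac lists cannot be given for such genes. Chad, Itih2, Amy1 and Phf11c had 0.360 to 0.422. The median over the 5426 genes was 0.928. Without Nppa in the mean, 9 of the 15 remained and Armc2 had the lowest value (0.257). Mb and Fabp3 were then the only 2 genes of the cardiac lists among the 15. Within the first 100 of the order with Nppa there were 10 of the 35.

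Markers of other tissues near the heart gave the following values beside the members, and their part in the members' levels was not tested. Adipocyte markers (10 genes, 8 tested, all with a positive log2 fold change, 0 called, median 0.62) summed to 327, 324, 90.0, 198 and 208 CPM in EpithelialKO mice 17, 18, 20, 21 and 22, against 129, 124, 364, 70.5 and 90.2 CPM in Flox mice 2 to 6. EpithelialKO mice 17 and 18 and Flox mouse 4 were high in both adipocyte and cardiac genes, whereas Flox mouse 5 was high in cardiac genes and the lowest in adipocyte genes. Mesothelial markers (7 genes, 7 tested, 6 negative, 0 called, median -0.52) summed to 341 to 782 CPM in EpithelialKO and 469 to 824 CPM in Flox mice.

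Smooth muscle markers (11 genes, 11 tested, 11 negative, 0 called, median -0.44) summed to 320 to 534 CPM in EpithelialKO and 430 to 547 CPM in Flox mice, with EpithelialKO mouse 17 the highest of its group. Skeletal muscle markers (17 genes, 9 tested, 7 positive, 0 called, median 0.38) summed to 15.8 to 29.7 CPM in EpithelialKO and 10.7 to 17.7 CPM in Flox mice, with EpithelialKO mice 17 and 20 the highest of their group. Of 6 oesophageal squamous markers 1 was tested, Calml3, a calmodulin-like gene of stratified epithelia (0 called). Calml3 had 19.8 CPM in EpithelialKO mouse 17 and 1.81 to 3.35 CPM in the other EpithelialKO mice, against 0.466 to 4.35 CPM in Flox mice. The squamous keratins did not share this: Krt4 and Krt6a had 0 counts in EpithelialKO mouse 17, Krt13 had 6 counts there and 0 to 10 in the other mice, and Sprr3 had 0 counts in all mice. Thymus markers (6 genes, 2 tested, 0 called) summed to 9.84 to 19.0 CPM in EpithelialKO and 12.2 to 23.9 CPM in Flox mice. Airway cartilage markers (7 genes, 1 tested, 0 called) summed to 0.919 to 2.18 CPM in EpithelialKO and 0.465 to 1.20 CPM in Flox mice, and Matn1 and Cnmd had 0 counts in all mice.

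Erythroid markers (6 of 7 genes in the table, 6 positive, 0 called, median 0.33) summed to 2192 to 5486 CPM in EpithelialKO and 1157 to 4862 CPM in Flox mice, and were lowest in EpithelialKO mouse 17 and Flox mouse 4 of their groups, the mice with the most cardiac RNA.

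The wider lists of atrial, ventricular and conduction genes held many genes that lung cells express at high levels, such as Clu, Stard10, Hopx and Tbx3, and their sums were set by these. Of 15 atrial and pulmonary vein genes 11 were tested, with 6 positive, 5 negative, 0 called and a median of 0.04. These included the members Myl7, Myl4, Nppa, Sln and Mybphl, all positive. Of the others, Stard10 was positive (0.19) and Gja5, Tbx5, Dkk3, Clu and Nr2f2 negative. Dkk3, named after its values were seen, had the lowest p of this list but did not pass (-0.60 ± 0.11, SE, edgeR adjusted p = 0.0548). It had 40.6 to 55.2 CPM in EpithelialKO and 60.3 to 78.8 CPM in Flox mice. Dkk3 was the only 1 of the 11 genes tested whose groups did not overlap, against 3.12% of all genes tested. Of 10 ventricular genes 5 were tested, with 4 positive, 0 called and a median of 0.57. Of 10 conduction genes 4 were tested, all negative, with 0 called and a median of -0.42, and the pacemaker channel gene Hcn4 had too few counts to test.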

How the data were processed

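Polyadenylated whole-lung RNA was converted to random-primed cDNA libraries, per the labels' protocols. The submitters' processing notes name cutadapt, HISAT2 and the GRCm38 build; their versions, and the tool, annotation and strand setting used for counting, are not stated there. The deposited values are raw counts per Entrez gene, 1 column per mouse, and 25275 of 27179 genes matched a RefSeq symbol. No 2 libraries agreed within sampling noise (chi-square over its degrees of freedom at least 17.0), so each counted as 1 sample.

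Genes were filtered with filterByExpr (15301 left), scaled by TMM and tested with the edgeR 4.0.16 quasi-likelihood test (robust, group as the only term; R 4.3.3), with Benjamini-Hochberg adjustment over all genes tested and a threshold of 0.05. The SE came from the F statistic. CPM is after TMM, and log2 CPM used a prior count of 2. Transcript length was that of the longest principal coding transcript of GENCODE M21. Intervals on CPM are 95% Clopper-Pearson and cover counting error only. The fit was tested on simulated data.

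The members, lists and tests were chosen with earlier results of these data known. All members are named; of the other lists, counts and up to 6 genes with the highest levels, the listed paralogs, and the 15 genes most like the members were to be named. Some genes under this rule are not reported here, and some list genes were instead named for what they mark or after their values were seen. The alternatives tried were scaling by upper quartile or by DESeq2 size factors, DESeq2 1.42.0, limma-voom with sample weights (limma 3.58.1), no robust estimate, no filter, 1 CPM in 5 mice, leaving out each mouse, leaving out Flox mice 4 and 6, and prior counts of 0.5 and 5.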

Additional observations from a re-analysis of the deposited data

Results flagged for a closer look

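Actc1 in EpithelialKO mouse 17, at 57.8 CPM, stood farther from the other 4 mice of its group than 0.71 of the group's whole range, the 95% limit of Dixon's test for 5 samples. The same held for Ryr2 in Flox mouse 6, at 2.18 CPM. Of 22 groups looked at, 2 were set apart in this way, and chance sets apart about 1 in 20.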

How the results depend on the processing

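The number of members called was 0 in the 18 alternative fits, and their median log2 fold change lay between -0.22 (without EpithelialKO mouse 17) and 0.19 (without EpithelialKO mouse 21); it was -0.02 without Nppa, an alternative chosen after seeing the data. The signs of uncalled fold changes near 0 depended on single mice. Under limma-voom Myl7, Myl4 and Sln had -0.017, -0.060 and -0.18. With each mouse left out in turn, log2 fold changes ranged from -0.27 to 0.23 for Myl7, -0.18 to 0.30 for Myl4, -0.31 to 0.047 for Tnnt2, -0.27 to 0.16 for Tnni3, -0.60 to 0.049 for Actc1, -0.39 to 0.53 for Sln and -0.21 to 0.16 for Ryr2. Myh6 ranged from -0.997 to -0.49, Mybphl from 0.31 to 0.94 and Nppa from 1.43 to 3.46, and these 3 kept their sign in all 18 fits. Over all genes tested the number of calls, 6 in the edgeR fit, was 279 with DESeq2, 29 with limma-voom, 34 with no filter, 0 without Flox mice 4 and 6, and 0 to 48 when 1 mouse was left out; between 1207 and 2480 had an unadjusted p under 0.05. The cause was not tested. No paired analysis was possible because the groups share no mouse number. Depth limits Mybphl and Nppa most, whose lowest values rest on 7 and 4 counts.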
